A study of Mus musculus with 12 samples.

Results

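Fatty acid elongases and fatty acid desaturases were followed here as a family of 10 genes, *Elovl1*, *Elovl3*, *Elovl4*, *Elovl5*, *Elovl6*, *Elovl7*, *Scd1*, *Scd2*, *Fads1* and *Fads2*. The genes were chosen by name, out of 20660 genes that could be named on the arrays, and all their probes were taken, 12 of 55681. RNA came from subcutaneous white adipose tissue (scWAT) and brown adipose tissue (BAT), labelled white adipose and brown adipose, of male C57Bl6/J mice at 12 weeks of age. Each of the 2 tissues was taken from WT and from Lr11 -/- mice, which made 4 groups of 3 one-colour Agilent arrays. Lr11 -/- mice lack LR11, a sorting receptor encoded by *Sorl1*, and were compared with WT littermates. All 4 groups received a high-fat diet (HFD) with 60% of its calories from fat. The labels name both 4 weeks of HFD and HFD begun at weaning, and which of these holds is not settled. Nothing in the labels says which mouse each array came from, so the spread between arrays may be partly technical.

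Elongases lengthen a fatty acid that is bound to coenzyme A. They condense it with malonyl-CoA, after which a reductase, a dehydratase and a further reductase complete the cycle in the endoplasmic reticulum. ELOVL1, ELOVL3, ELOVL6 and ELOVL7 work mainly on saturated and monounsaturated chains, whereas ELOVL5 and ELOVL4 handle polyunsaturated and very long chains. Stearoyl-CoA desaturases (SCD1 and SCD2) place a double bond into saturated chains, and FADS1 and FADS2 add double bonds to polyunsaturated ones. Brown adipocytes, which burn fat to make heat, are known for high *Elovl3* and *Elovl6* under cold exposure.

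A value below is the log2 of a probe's intensity minus the log2 of the 75th percentile of its array, so that 0 marks a spot as bright as that percentile, and a difference of 1 is a doubling of the signal. The 75th percentile ran from 374 to 632, and 54.6 to 62.4% of the spots on an array were well above background. Replicate 1 of each group belonged to a first array series, and replicates 2 and 3 to a second. Where 3 values of a group are given, they stand in the order of replicates 1 to 3. Both first-series scWAT arrays shared slide 1, both first-series BAT arrays shared slide 3, and the second series was on slide 2. Differences were tested with limma in 1 fit of all arrays over 32121 probes, namely those well above background throughout 1 or more of the groups, at a Benjamini-Hochberg adjusted p under 0.05. *Sorl1* (probe A_55_P2151609) was lower in the knockout, with -4.34 on the log2 scale in scWAT (SE 0.42, adjusted p = 0.0063) and -3.63 in BAT (SE 0.42, adjusted p = 0.0319). Of the 10 genes, 9 could be tested, each read from its brightest tested probe. *Fads2* was well above background on 3 of 12 arrays and was not tested.

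The tissue labels were set against marker genes. For brown adipocytes (*Ucp1*, *Cidea*, *Ppargc1a*, *Dio2*, *Cox8b*, *Cox7a1*, *Zic1* and *Otop1*) the log2 of the summed level was 4.61, 1.87 and 8.04 on WT scWAT replicates 1 to 3 and 8.64, 11.71 and 11.83 on those of Lr11 -/- scWAT. It was 11.37 to 11.73 in WT BAT and 11.59 to 11.80 in Lr11 -/- BAT. By this sum, which the brightest markers dominate, Lr11 -/- scWAT replicates 2 and 3 were level with BAT, and replicate 1 lay near the highest WT scWAT array. *Zic1*, a marker of classical brown fat, went against it, at -3.79 to -3.00 in Lr11 -/- scWAT, below every BAT array (-0.71 to 1.49). Its WT scWAT arrays ran from -6.86 to 0.76, so *Zic1* did not set WT scWAT apart from BAT. All 8 markers were well above background on every array but WT scWAT replicates 1 and 2, which had 7 and 6 of them. For skeletal muscle, 10 of 10 markers were well above background on WT scWAT replicate 3, Lr11 -/- scWAT replicate 1, WT BAT replicates 1 and 3 and Lr11 -/- BAT replicate 1, with summed levels of 9.57 to 12.11. On the other arrays the muscle sum was 0.84 to 2.53, with *Acta1*, *Tnnc2*, *Pvalb* and *Atp2a1* still well above background. The 6 macrophage markers with a probe were well above background on all arrays, with sums of 5.09 to 7.63 in WT scWAT, against 4.78 to 5.44 in Lr11 -/- scWAT.

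Promoter sequences are shown for 3 members: *Elovl6*, which passed the threshold between the genotypes in scWAT, *Elovl5*, with a like estimate in both tissues over all arrays, and *Elovl1*, which ran the other way in scWAT. They come from RefSeq (build GRCm38.p6), whose promoter table held 6 of the 10 genes. Each is the 250 bases before the gene's start, 5′ to 3′ on the gene's strand, at chr3:129532136-129532385 (+ strand) for *Elovl6*, chr9:77917115-77917364 (+ strand) for *Elovl5* and chr4:118427843-118428092 (+ strand) for *Elovl1*, where the table has a second start further on. Capitals mark matches on either strand to 6 motifs, namely the CCAAT box, the GC box GGGCGG, the E-box CACGTG, the sterol response element core TCACNCCAC, the nuclear receptor half-site AGGTCA and the TATA box TATAAA.
Elovl6: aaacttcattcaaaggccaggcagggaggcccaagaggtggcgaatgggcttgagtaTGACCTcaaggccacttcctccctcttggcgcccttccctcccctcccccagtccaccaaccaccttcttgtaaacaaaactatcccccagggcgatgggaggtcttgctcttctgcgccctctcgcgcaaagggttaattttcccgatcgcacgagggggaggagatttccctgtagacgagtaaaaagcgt
Elovl5: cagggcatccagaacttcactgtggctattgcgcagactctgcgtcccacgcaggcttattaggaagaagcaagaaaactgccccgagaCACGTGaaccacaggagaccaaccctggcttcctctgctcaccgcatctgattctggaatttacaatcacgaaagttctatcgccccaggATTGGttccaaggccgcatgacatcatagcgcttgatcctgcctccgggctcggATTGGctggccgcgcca
Elovl1: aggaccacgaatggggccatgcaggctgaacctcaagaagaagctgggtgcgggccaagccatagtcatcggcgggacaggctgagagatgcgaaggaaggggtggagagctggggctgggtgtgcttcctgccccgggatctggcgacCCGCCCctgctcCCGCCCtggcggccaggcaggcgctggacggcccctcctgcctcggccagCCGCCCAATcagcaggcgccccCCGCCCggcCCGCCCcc
The *Elovl6* window held 1 match, an AGGTCA on the reverse strand, a motif found in 14% of 32851 promoters. *Elovl5* held CCAAT at 2 places (present in 33.8% of promoters) and CACGTG at 1 (6.02%). *Elovl1* held GGGCGG at 5 places (32.7%) and CCAAT at 1, which overlaps a GGGCGG match. TCACNCCAC, present in 1.05% of promoters, and TATAAA, in 12.4%, were in none of the 7 member promoters. Such matches describe letters and not bound sites.

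The comparison of Lr11 -/- with WT scWAT asked how the knockout changed white fat under HFD. *Elovl6* was the member that passed the threshold, 21.9-fold higher in Lr11 -/- (4.45 on the log2 scale, SE 0.94, adjusted p = 0.0386). Over all probes tested 5.27% passed, 3.4% higher and 1.87% lower. Of the 9 members, 7 had a higher and 2 a lower mean in Lr11 -/-, with a median log2 fold change of 1.14 beside 0.04 over all probes. At an unadjusted p under 0.05 there were 6 members, beside 27.6% of all probes. The genotypes did not overlap for *Elovl1*, *Elovl3*, *Elovl6* and *Elovl7*, beside 20.4% of all probes.

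**Figure D1:**
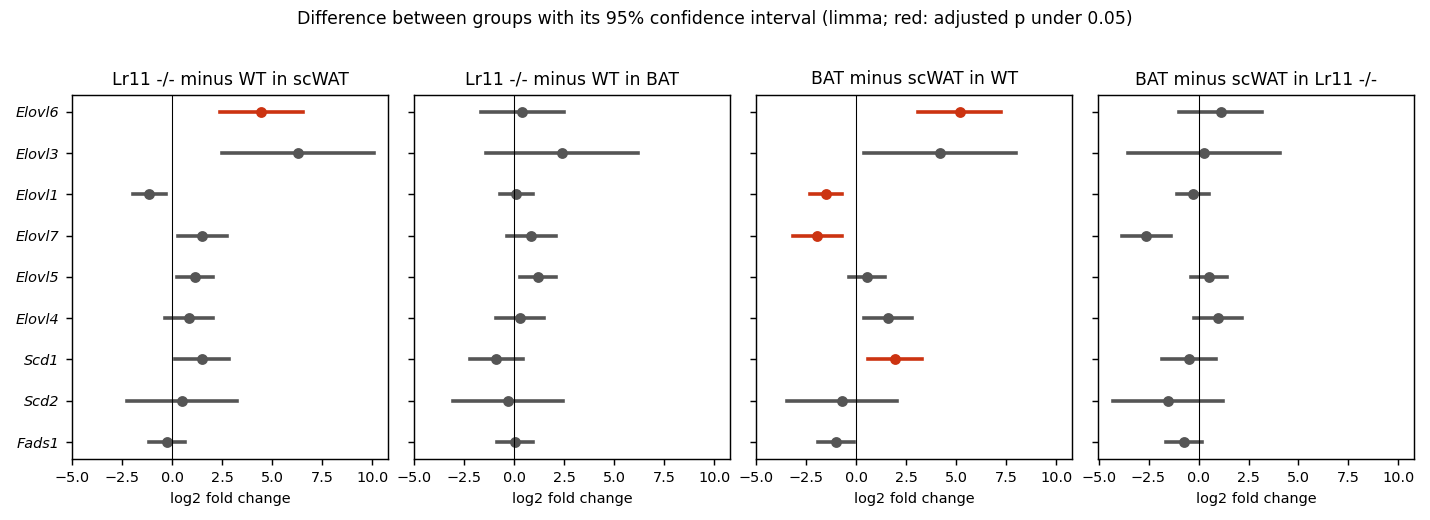
Log2 fold change (x axis) of each of the 9 tested genes in 4 comparisons, with points for the estimate, bars for its 95% confidence interval and red for an adjusted p under 0.05 in limma. *Elovl6* passed in scWAT between the genotypes and between the tissues of WT mice, *Elovl1*, *Elovl7* and *Scd1* passed between the WT tissues, and no member passed in the other panels.

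*Elovl6* (probe A_51_P463440) encodes the elongase that takes palmitate to stearate. In scWAT its log2 intensity on replicates 1 to 3 was 0.23, 0.16 and 0.07 in WT, against 1.66, 6.13 and 6.02 in Lr11 -/-. The WT arrays lay close together, all Lr11 -/- arrays were above them, and Lr11 -/- replicate 1 was far below replicates 2 and 3. That array also had high sums of muscle (12.05, against 0.95 and 0.87) and of mammary and other epithelial markers (5.84, against -0.52 and -1.29). Within Lr11 -/- scWAT, array series and these markers cannot be told apart, for *Elovl3*, *Elovl4* and *Elovl5* as well. In BAT the values were 5.34, 5.65 and 4.96 in WT, against 5.61, 6.15 and 5.36 in Lr11 -/-, which overlap. Lr11 -/- scWAT replicates 2 and 3 were above every WT BAT array. The scWAT difference was 1.43 within the first array series (1 array a group, no test) and 5.97 within the second. With 1 array left out it stayed between 3.69 and 5.93. It remained past the threshold when WT scWAT replicate 1 or 3 was dropped, and when Lr11 -/- scWAT replicate 1 was dropped (5.93, adjusted p = 2.44e-05). Over all probes 4409, 4617 and 6371 passed in these fits, against 1692 with all arrays. The call was lost without WT scWAT replicate 2 (4.46, adjusted p = 0.0922), Lr11 -/- scWAT replicate 2 (3.69, adjusted p = 0.153) or 3 (3.75, adjusted p = 0.171), or any of the BAT arrays (4.45, adjusted p = 0.0614 to 0.0678). The same held with no filter on dim probes (adjusted p = 0.0735) and with the 2 scWAT groups fitted alone (adjusted p = 0.315). Over all probes 3 to 222 passed in the fits that lost the call by leaving out an array.

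*Elovl3* (probe A_51_P324633), an elongase of saturated and monounsaturated chains, spanned the widest range of group means, 6.55 on the log2 scale. Its values in WT scWAT were -1.38, -6.40 (not well above background) and -2.25, and in Lr11 -/- scWAT they were -1.28, 5.09 and 5.02. Replicate 1 of Lr11 -/- was just above the highest WT array, while replicates 2 and 3 were above all BAT arrays. Its genotype difference of 6.29 (SE 1.72, adjusted p = 0.0573) did not pass the threshold. It was 0.10 within the first series and 9.38 within the second. The difference passed without WT scWAT replicate 1 (7.27, adjusted p = 0.0375) or 3 (6.83, adjusted p = 0.0485) or Lr11 -/- scWAT replicate 1 (8.40, adjusted p = 0.00338). It was smaller, and did not pass, without WT scWAT replicate 2, the dim array (4.76, adjusted p = 0.165), or Lr11 -/- scWAT replicate 2 (5.21, adjusted p = 0.199) or 3 (5.25, adjusted p = 0.225). In BAT the WT arrays gave -0.69, 0.93 and 2.26 and the Lr11 -/- arrays 3.89, 3.21 and 2.51, with no overlap. That difference of 2.37 (95% CI -1.43 to 6.16) came mostly from the first series, at 4.58, against 1.26 in the second.

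*Elovl1* (probe A_55_P2151273) makes very long saturated chains for sphingolipids. It was 4.82, 5.35 and 3.63 in WT scWAT, against 3.61, 3.55 and 3.22 in Lr11 -/- scWAT. The groups just missed overlapping, WT replicate 3 being level with the highest Lr11 -/- array. Lr11 -/- minus WT gave -1.14 (SE 0.37, adjusted p = 0.0843), and -1.62 (adjusted p = 0.00524) without WT scWAT replicate 3, but -0.76 (adjusted p = 0.226) without WT scWAT replicate 2. A further probe of the gene gave -0.95 (adjusted p = 0.137). The order of the WT scWAT arrays in *Elovl1* was that of their macrophage sums, 5.98, 7.63 and 5.09, and the part of those cells in the result was not tested. In BAT all 6 arrays lay between 2.99 and 3.44.

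*Elovl7* (probe A_52_P354682), which also elongates saturated chains, was dim in these tissues. WT scWAT gave -4.10, -2.08 and -2.06, and Lr11 -/- scWAT gave -1.26, -1.14 and -1.33. All Lr11 -/- arrays were above all WT arrays and lay close together. The summed levels of mammary and other epithelial markers were -0.89, -1.47 and 3.43 in WT scWAT, against 5.84, -0.52 and -1.29 in Lr11 -/- scWAT, and their part in the result was not tested. The genotype difference of *Elovl7*, 1.50 (SE 0.55, adjusted p = 0.113), did not pass the threshold, and was 2.84 in the first and 0.84 in the second series, and 0.83 without WT scWAT replicate 1. In BAT 1 of 3 WT arrays and 2 of 3 Lr11 -/- arrays were well above background.

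**Figure D2:**
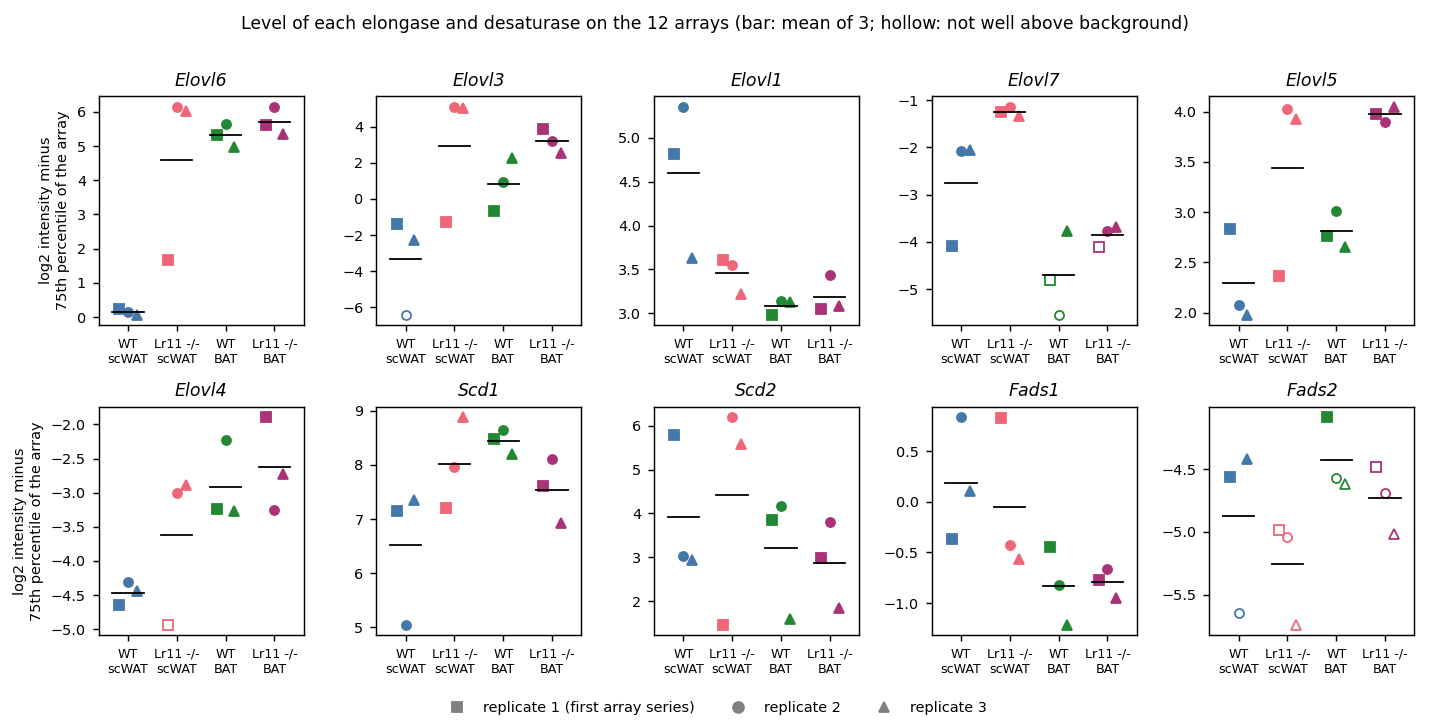
Log2 intensity minus the 75th percentile of the array (y axis, own range in each panel) for the 10 genes in the 4 groups. Symbols are single arrays by replicate, hollow ones not well above background, and bars are means of 3; for *Elovl6*, *Elovl3* and *Elovl5* replicate 1 of Lr11 -/- scWAT (1.66, -1.28 and 2.36) sits below replicates 2 and 3.

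*Elovl5* (probe A_51_P505493) elongates polyunsaturated fatty acids. In BAT it was 2.77, 3.01 and 2.65 in WT, against 3.98, 3.89 and 4.05 in Lr11 -/-. All Lr11 -/- arrays stood clear of the WT arrays, within a span smaller than the gap. The difference was 1.16 (SE 0.41, 95% CI 0.26 to 2.06), 1.21 and 1.14 within the array series, and its adjusted p was 1. In scWAT the WT arrays gave 2.84, 2.08 and 1.98 and the Lr11 -/- arrays 2.36, 4.02 and 3.92. These groups overlapped through the first-series pair, where Lr11 -/- was lower. Here the difference was 1.14 (SE 0.41, adjusted p = 0.107), and 1.68 (adjusted p = 0.0036) without Lr11 -/- scWAT replicate 1, but 0.85 (adjusted p = 0.315) and 0.90 (adjusted p = 0.338) without replicate 2 and 3 of that group. Over all arrays both tissues gave nearly the same estimate, and the difference between them was -0.02 (95% CI -1.29 to 1.25), or 0.051 with the arrays scaled to their medians. The array series went opposite ways here. In the first and second series the scWAT difference was -0.47 and 1.95, and the difference between tissues -1.68 and 0.81. The average over both tissues, a contrast chosen after these values were seen, was 1.15 (SE 0.29, adjusted p = 0.142), where 0.121% of all probes passed, and 1.42 (adjusted p = 0.00313) without Lr11 -/- scWAT replicate 1. It passed in that 1 of the 12 fits that left out an array, with adjusted p up to 0.344. In that fit *Elovl6* (adjusted p = 0.000106) and *Elovl3* (0.00817) passed too, with 3528 of all probes. With all arrays the average was 2.42 for *Elovl6* (adjusted p = 0.153), 4.33 for *Elovl3* (0.156) and 1.18 for *Elovl7* (0.17), and no member passed. The gene table places *Elovl5* and *Elovl4* on chromosome 9, as it does *Sorl1*, and the part of this shared chromosome in their differences was not tested.

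*Elovl4* (probe A_55_P1982533), which makes very long chains in retina and skin, was dim. Its values were -4.65, -4.31 and -4.44 in WT scWAT, and -4.94 (not well above background), -3.01 and -2.89 in Lr11 -/- scWAT. The second-series Lr11 -/- arrays were above all WT arrays and the first-series one below. The genotypes differed by 0.85 (SE 0.54, adjusted p = 0.334), and 1.51 (adjusted p = 0.0326) without Lr11 -/- scWAT replicate 1, but 0.55 (adjusted p = 0.644) and 0.49 (adjusted p = 0.697) without replicate 2 and 3 of that group. The BAT arrays lay between -3.26 and -2.23 in WT and between -3.25 and -1.89 in Lr11 -/-, and overlapped. A further probe was well above background on 5 of 12 arrays and was not tested.

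*Scd1* (probe A_52_P682382) encodes the main desaturase of adipocytes, which turns stearate into oleate. It was 7.15, 5.05 and 7.36 in WT scWAT, against 7.21, 7.96 and 8.89 in Lr11 -/- scWAT. The groups overlapped, and WT replicate 2, which also had the lowest adipocyte marker sum (8.46, against 9.64 to 10.80 on the other scWAT arrays), was lowest. The part of adipocyte content in the result was not tested. In scWAT the genotype difference was 1.50 (SE 0.61, adjusted p = 0.144), or 0.76 (adjusted p = 0.39) without WT scWAT replicate 2, with 0.06 in the first and 2.22 in the second series. In BAT *Scd1* was 8.48, 8.64 and 8.20 in WT, against 7.61, 8.10 and 6.92 in Lr11 -/-. All Lr11 -/- BAT arrays were below all WT BAT arrays, with a difference of -0.89 (95% CI -2.23 to 0.45) that did not pass.

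*Scd2* (probe A_51_P129464), a related desaturase best known from brain, varied more within groups than between them. It was 5.78, 3.02 and 2.95 in WT scWAT, against 1.46, 6.20 and 5.59 in Lr11 -/- scWAT. The first series had the higher WT array and the second the higher Lr11 -/- arrays, so that the difference was -4.32 in the first and 2.91 in the second series. The pooled log2 fold change was 0.50 (95% CI -2.25 to 3.25), and turned to -0.39 or -0.09 without Lr11 -/- scWAT replicate 2 or 3. The BAT values, 3.86, 4.17 and 1.61 in WT, against 2.98, 3.80 and 1.86 in Lr11 -/-, overlapped, with a log2 fold change of -0.33 (95% CI -3.09 to 2.42).

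*Fads1* (probe A_51_P358112) adds a late double bond in the making of arachidonate. Its scWAT values were -0.37, 0.84 and 0.10 in WT, against 0.83, -0.43 and -0.56 in Lr11 -/-, and they overlapped. The log2 fold change was -0.25 (95% CI -1.15 to 0.66), with 1.20 in the first and -0.97 in the second series. BAT gave -1.22 to -0.45 in WT, against -0.95 to -0.67 in Lr11 -/-, a log2 fold change of 0.03 (95% CI -0.87 to 0.93). *Fads2* (probe A_66_P130115), which acts earlier in the same route, was well above background on 2 of 3 WT scWAT arrays, 1 of 3 WT BAT arrays and no Lr11 -/- array, at values from -5.74 to -4.08 over all arrays.

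The same question in BAT gave no member past the threshold in limma, where 0.0187% of all probes passed. At an unadjusted p under 0.05 there was 1 member, *Elovl5*, beside 2.12% of all probes. Of the 9 members, 7 were higher and 2 lower in Lr11 -/- BAT, with a median log2 fold change of 0.29 beside 0.04 over all probes. *Elovl3*, *Elovl5* and *Scd1* did not overlap between the genotypes, beside 12% of all probes. Skeletal muscle markers were high on 2 of 3 WT and 1 of 3 Lr11 -/- BAT arrays, and their part in these differences was not tested. *Elovl5* was at 2.77 and 2.65 on the WT arrays with high muscle markers and 3.01 on the other, and at 3.98 on such an Lr11 -/- array beside 3.89 and 4.05.

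Whether the genotype difference was unlike in the 2 tissues was tested as the scWAT difference minus the BAT difference. No probe passed in limma (0%), while 11% had an unadjusted p under 0.05. *Elovl6* gave 4.06 (SE 1.33, adjusted p = 0.403), *Scd1* 2.39 (SE 0.86, adjusted p = 0.404) and *Elovl1* -1.25 (SE 0.52, adjusted p = 0.425), and these 3 members had an unadjusted p under 0.05. Without Lr11 -/- scWAT replicate 1 the value for *Elovl6* was 5.54 (adjusted p = 0.000703), where 1193 of all probes passed. Without WT scWAT replicate 3 that for *Elovl1* was -1.73 (adjusted p = 0.0473), where 236 did. These were the calls gained by leaving out 1 array, and the other fits of this kind gave values down to 3.30 for *Elovl6* and 1.65 for *Scd1* and as near 0 as -0.87 for *Elovl1*, with adjusted p up to 0.781.

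BAT was compared with scWAT within each genotype. In WT mice 4 of 9 members passed, beside 24.8% of all probes, and 7 had an unadjusted p under 0.05, beside 40.1%. *Elovl6* and *Scd1* were higher in BAT (15.7% of probes were), and *Elovl1* and *Elovl7* lower (9.13% were). *Elovl6* differed most, at 35.9-fold (5.17 on the log2 scale, SE 0.94, adjusted p = 0.0058), and passed with each array left out in turn. *Scd1* was higher by 1.92 (SE 0.61, adjusted p = 0.0421). It passed in 4 of the 12 fits that left out 1 array, and without WT scWAT replicate 2 it was 1.18 (adjusted p = 0.11). The call was also lost with the array series (adjusted p = 0.0524) or the slide (1.85, adjusted p = 0.127) as a block. The log2 fold change of *Elovl1* was -1.52 (SE 0.37, adjusted p = 0.0156), and its adjusted p was 0.0543 and 0.0512 without WT BAT replicate 1 and 2. With the slide as a block *Elovl1* gave -1.36 (adjusted p = 0.071). That of *Elovl7* was -1.96 (SE 0.55, adjusted p = 0.0273) with 1 WT BAT array inside the range of WT scWAT. It did not pass without WT scWAT replicate 2 (-1.62, adjusted p = 0.0879) or 3 (-1.62, adjusted p = 0.0698) or WT BAT replicate 1 (-1.91, adjusted p = 0.0797) or 2 (-1.54, adjusted p = 0.107), or with normexp background correction (-0.51, adjusted p = 0.229). All 6 macrophage markers had a lower mean in WT BAT than in WT scWAT, and 4 of them passed the threshold. Their part in the *Elovl1* difference was not tested.

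The other members did not pass between the WT tissues. *Elovl3* was higher in BAT by 4.18 (SE 1.72, adjusted p = 0.0962), *Elovl4* by 1.56 (SE 0.54, adjusted p = 0.0589) and *Elovl5* by 0.51 (SE 0.41, adjusted p = 0.369). The log2 fold change of *Fads1* was -1.02 (SE 0.41, adjusted p = 0.0886) and that of *Scd2* -0.71 (SE 1.24, adjusted p = 0.703). With Lr11 -/- scWAT replicate 1 left out of the shared fit, *Elovl3* (adjusted p = 0.0264), *Elovl4* (0.0137) and *Fads1* (0.0354) passed as well. That made 7 of 9, beside 9521 of all probes, although that array is in neither WT group. WT scWAT and WT BAT did not overlap for *Elovl1*, *Elovl3*, *Elovl4*, *Elovl6*, *Scd1* and *Fads1*, beside 40.2% of all probes.

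In Lr11 -/- mice no member passed between BAT and scWAT in limma, where 0.0405% of all probes did. *Elovl7* had the largest difference at -2.61 (SE 0.55, adjusted p = 0.2), in the direction seen in WT, and was the member with an unadjusted p under 0.05, beside 9% of all probes. For this gene 2 of 3 Lr11 -/- BAT arrays were well above background. For *Elovl6* the 95% CI of the difference ran from -0.97 to 3.17, and *Elovl1* differed by -0.27 (95% CI -1.08 to 0.54). *Elovl7* and *Fads1* did not overlap between the tissues, beside 23.2% of all probes. The comparisons share arrays, since each group enters a genotype and a tissue difference, and their values are given side by side.

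Ordered by group means, *Elovl6* and *Elovl4* ran from WT scWAT over Lr11 -/- scWAT and WT BAT to Lr11 -/- BAT. *Elovl3* and *Elovl5* had Lr11 -/- scWAT above WT BAT, between WT BAT and Lr11 -/- BAT. *Elovl1* had the reverse order of tissues, with WT scWAT highest. For *Elovl6*, Lr11 -/- scWAT, WT BAT and Lr11 -/- BAT overlapped with each other and none overlapped WT scWAT. For *Elovl5*, Lr11 -/- BAT and Lr11 -/- scWAT overlapped. In whole tissue, a change in the number of cells of a type and a change of RNA per cell cannot be told apart.

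**Figure D3:**
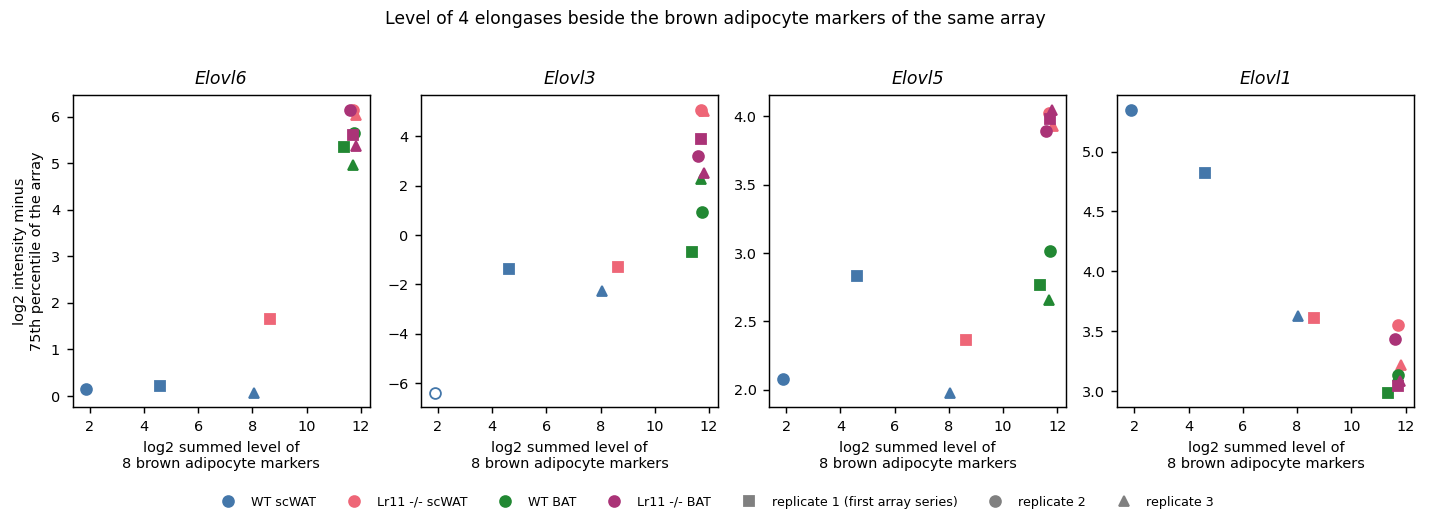
Log2 intensity minus the 75th percentile of the array (y axis) of 4 elongases against the log2 summed level of 8 brown adipocyte markers on the same array (x axis), 1 symbol per array. *Elovl6* was at 1.66 or less on the 4 arrays with marker sums up to 8.64 and at 4.96 or more on the 8 arrays with sums of 11.37 or more. *Elovl5* lay between 2.65 and 3.01 in WT BAT and between 3.89 and 4.05 on the Lr11 -/- arrays with sums of 11.37 or more.

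The brown adipocyte markers moved with several members. Between the genotypes in scWAT 4 of the 8 markers passed, each of the 4 higher in Lr11 -/-, with a median log2 fold change of 5.26 over the 8, where 3.4% of all probes were called higher. *Zic1* was the 1 marker with a lower mean in Lr11 -/- scWAT (-3.53, against -1.88 in WT, adjusted p = 0.543), its WT arrays running from -6.86 to 0.76. Between the WT tissues 7 of 8 passed, higher in BAT, where 15.7% of all probes were, and *Zic1* did not (2.59, adjusted p = 0.26). WT scWAT replicate 3 had a marker sum of 8.04, near the 8.64 of Lr11 -/- scWAT replicate 1, and their *Elovl6* values were 0.07 and 1.66. Both arrays had high skeletal muscle sums (12.11 and 12.05), and their single brown markers were not all alike. *Cox8b* was at most 7.33 in WT scWAT and at least 7.37 in Lr11 -/- scWAT. *Ucp1* was at most 2.92 against at least 4.39, and *Cidea* at most 4.34 against at least 6.31. *Ppargc1a* (at most 0.32 against at least 0.98) and *Cox7a1* (6.16 against 7.02) did not overlap either, beside 20.4% of all probes. *Otop1* (at most 0.73 against at least 0.09), *Dio2* (at most -0.99 against at least -1.12) and *Zic1* overlapped between these groups. At marker sums of 11.37 or more, *Elovl3* ranged from -0.69 to 5.09. *Elovl5* differed between WT BAT and Lr11 -/- BAT at marker sums of 11.37 to 11.73 and 11.59 to 11.80, which the brightest markers dominate. Of the 8 markers 7 had a higher mean in Lr11 -/- BAT and 1 a lower, and none passed. *Ppargc1a* did not overlap, at 2.84 to 3.55 in WT BAT and 4.47 to 5.36 in Lr11 -/- BAT, beside 12% of all probes. *Dio2* overlapped, at 1.67 to 4.44 and 4.20 to 5.14. The part of brown adipocyte content in the *Elovl6*, *Elovl3* and *Elovl5* differences was not tested.

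Genes that work around these enzymes were taken as 4 lists of 36 genes, of which 34 were tested. In Lr11 -/- against WT scWAT, 2 passed higher and 1 lower, beside 3.4% and 1.87% of all probes. For the enzymes that supply malonyl-CoA, palmitate and NADPH, 1 of 10 passed, all 10 had a higher mean in Lr11 -/-, and the median log2 fold change was 2.29. That gene was *Acaca*, the acetyl-CoA carboxylase that makes malonyl-CoA, at 3.75 (SE 0.63, adjusted p = 0.0262), and its 3 tested probes all passed. Among the partners in the elongation cycle, 1 of 6 passed, *Hacd4*, a dehydratase, at -1.60 (SE 0.40, adjusted p = 0.0494), with -1.55 (adjusted p = 0.103) on its other probe. The median of these partners was 0.63. None of the 6 desaturation partners passed in limma, and 1 had an unadjusted p under 0.05, beside 27.6% of all probes. Their median was -0.05. Of 12 regulators of lipogenic transcription 1 passed, *Ppara*, a nuclear receptor of fatty acid oxidation, at 4.77 (SE 1.22, adjusted p = 0.0498) with overlapping groups, and their median was 1.24. Further probes of *Ppara* gave 5.19 (adjusted p = 0.0514) with overlapping groups and 2.27 (adjusted p = 0.0474) without overlap. The lists lost all calls when any of WT scWAT replicate 2, both second-series arrays of Lr11 -/- scWAT (each on its own) or Lr11 -/- BAT replicate 1 was dropped, and had 15 when replicate 1 of either scWAT group was dropped.

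Between the WT tissues 12 of the 34 genes passed, 11 higher and 1 lower in BAT, beside 24.8% of all probes (15.7% higher and 9.13% lower). The supply list had 4 of 10 higher, led by *Fasn*, the fatty acid synthase, at 5.43 (SE 1.36, adjusted p = 0.018), *Acaca* at 4.15 (SE 0.63, adjusted p = 0.00373) and *Acacb* at 3.42 (SE 1.01, adjusted p = 0.033). Its median was 2.10, beside 0.07 over all probes. The regulators had 6 of 12 higher, with *Ppara* at 6.38 (SE 1.22, adjusted p = 0.00677), *Thrsp*, a lipogenic nuclear protein, at 5.87 (SE 1.67, adjusted p = 0.0286) and *Mlxipl*, the glucose-sensing factor ChREBP, at 3.64 (SE 0.91, adjusted p = 0.0179) but -0.28 on a further probe. *Scd3* passed at 2.81 (SE 0.77, adjusted p = 0.0256), with -1.16 on a further probe, and *Hacd4* at -2.19 (SE 0.40, adjusted p = 0.00618). The count was 3 without WT BAT replicate 2 (3276 of all probes passed), 5 without WT BAT replicate 1 (3886) and 19 without WT scWAT replicate 1 (6071 higher and 4160 lower). None of the 34 passed between the genotypes in BAT, where none had an unadjusted p under 0.05 either, beside 2.12% of all probes. Between the Lr11 -/- tissues none passed, and 2 had an unadjusted p under 0.05, beside 9% of all probes.

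**Figure D4:**
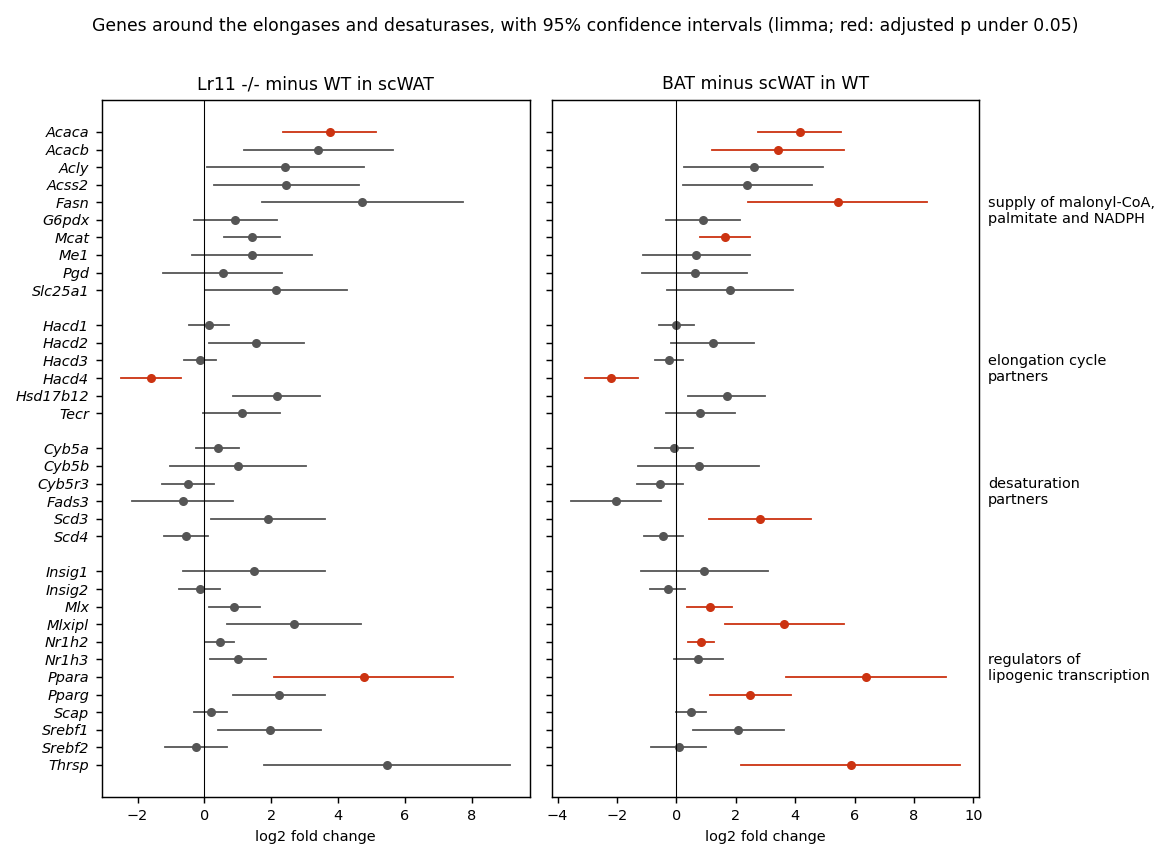
Log2 fold change (x axis) of 34 genes in 4 lists around the elongases and desaturases, between the genotypes in scWAT and between the WT tissues, with 95% confidence intervals and red for an adjusted p under 0.05 in limma. All 10 genes of the supply list lie to the right of 0 in both panels, with medians of 2.29 and 2.10.

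For the 3 members with the widest spread of group means, the genes with the most similar pattern over the 12 arrays were found among 14694 named genes by Pearson's r, as a description. *Elovl6* was closest to *Letmd1* (r = 0.99), *Dnajc11* (0.99) and *Ghitm* (0.99). The group means of *Letmd1* were 1.80 in WT scWAT, 5.37 in Lr11 -/- scWAT, 6.54 in WT BAT and 6.77 in Lr11 -/- BAT, the order of *Elovl6*. *Elovl3* was closest to *Sod1* (0.97), *Exosc5* (0.97) and *Vps33a* (0.97), which spanned less. The group means of *Sod1* ran from 6.50 in WT scWAT to 7.63 in Lr11 -/- scWAT. *Elovl7* was closest to *Slc7a4* (0.93), *Drd1* (0.92) and *Phyhd1* (0.89), each highest in Lr11 -/- scWAT. The arrays share depots, slides and cell makeup, so that such likeness is not particular to a pair of genes.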

How the data were processed

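RNA of 12 adipose samples was labelled with cyanine-3 and hybridised to one-colour Agilent mouse arrays of 62976 features. The authors deposited intensity values from Agilent Feature Extraction 10.10.1.1, which the software had corrected for background and spatial trend but not scaled between arrays. The table of the whole series held the same values (largest difference 0). Spots marked as outliers by that software (128 to 181 an array) were left out, log2 intensities were scaled to the 75th percentile of the 59305 spots outside controls, and spots of a probe were averaged. No spot was saturated, and the number of arrays limits the precision. Symbols came from RefSeq accessions (27235 of 28685 such probes matched 1 gene of GRCm38.p6). As the array was designed on mm9, its probes are given no coordinates. Groups came from the source labels, and replicates 1 to 3 are names in accession order.

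Tests used limma 3.58.1 in R 4.3.3 with 4 group means and no covariate, and the steps were tested on simulated data. All 10 members are named, with *Sorl1*, up to 3 genes past the threshold per list and comparison (largest change), and the 3 genes most like each of the 3 members of widest span. The members and lists were chosen with earlier results of these data known. The alternatives were normexp background, quantile, median or no scaling, other filters, outlier spots kept, array series or slide as a block, each series alone, array weights, trend and robust estimation, the compared groups alone, all probes of a gene, and each array left out. Figures were drawn with matplotlib 3.10.9.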

Additional observations from a re-analysis of the deposited data

Results flagged for a closer look

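*Scd1* stood out because its Lr11 -/- arrays all lay above the WT mean in scWAT and all below it in BAT. Its genotype effect was larger in scWAT than in BAT by 2.39 on the log2 scale (SE 0.86, adjusted p = 0.404 from limma), which did not pass the threshold. With 1 array left out it lay between 1.65 and 2.81, the lowest without WT scWAT replicate 2, which also took the scWAT difference from 1.50 to 0.76. Its values were 7.21, 7.96 and 8.89 in Lr11 -/- scWAT, against a WT mean of 6.52. The scWAT groups overlapped, with WT arrays at 7.15, 5.05 and 7.36. In Lr11 -/- BAT the values were 7.61, 8.10 and 6.92, against a WT mean of 8.44. How many of all probes met this rule was not counted. The log2 fold change was 0.06 and -0.87 in scWAT and BAT of the first array series and 2.22 and -0.91 in those of the second.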

How the results depend on the processing

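No paired analysis was possible because the labels carry no replicate numbers that tie arrays of different groups together. Between the genotypes in scWAT 1 member passed, where 1692 of 32121 probes did. The count was 0 with no filter on dim probes (151 of 55681 probes passed) or with the compared groups fitted alone (0). It was 4 in the second array series alone (7259), 3 with array weights (3392), and 0 to 4 with 1 array left out (3 to 6371). Over the tissue difference of the genotype effect the count of 0 became 1 in the second series alone (890 of all probes) and with array weights (1084). It was 0 to 1 with 1 array left out (0 to 1193). Between the WT tissues 4 became 2 with no filter (5794 of all probes), slide as a block (3993), array weights (5248) or the compared groups alone (3920). With 1 array left out the count was 1 (3276 or 3886) to 7 (9521), beside 7970 probes in the main fit. Between the Lr11 -/- tissues 0 became 2 with array weights (2021 of all probes) and 1 with the compared groups alone (12). In BAT no alternative moved the count of 0 between the genotypes. The pathway lists' 3 calls in scWAT became 1 with quantile normalization or no scaling and 0 to 15 with 1 array left out, a setting chosen for these lists after seeing the data, and their counts were 0 to 2 for the difference between tissues and 3 to 19 between the WT tissues. Calls over all probes moved as well, in scWAT from 1692 to between 145 and 175 with a BAT array left out. The cause of these shifts was not tested. *Elovl6* in scWAT kept its direction in the 25 alternatives with a test (3.69 to 5.97) and in the first array series alone, which has no test (1.43), and passed in 14, with adjusted p = 0.0735 with no filter and 0.315 with the compared groups alone. *Elovl7* between the WT tissues was -0.51 (adjusted p = 0.229) with normexp background. Between the WT tissues *Scd1* did not pass with either block (adjusted p = 0.0524 for the array series, 0.127 for the slide), nor *Elovl1* with the slide (0.071).

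Directions turned in differences that had not passed. In scWAT, with 1 array left out, *Scd2* ran from -0.39 to 1.98 (-0.086 among these) and *Fads1* from -0.69 to 0.079 (0.0097 among these). In BAT, *Elovl4* was -0.24 in the second series and *Fads1* -0.022 with no scaling and -0.0036 with array weights. With 1 array left out there, *Elovl1* ran from -0.019 to 0.18, *Elovl4* from -0.079 to 0.63, *Scd2* from -1.14 to 0.18 and *Fads1* from -0.16 to 0.22. For the difference between tissues, *Elovl5* was 0.051 with median scaling, 0.81 in the second series and 0.48 with array weights, and -0.32 to 0.51 with 1 array left out. *Elovl7* was -0.093 in the second series and -0.025 to 1.07 with 1 array left out, *Scd2* -0.058 to 2.31 and *Fads1* -0.72 to 0.047. Between the WT tissues *Scd2* ran from -1.19 to 0.23. Between the Lr11 -/- tissues *Elovl3* was -0.10 with slide as a block, -2.20 in the second series, -1.78 with array weights and -1.85 to 1.33 with 1 array left out. *Elovl6* was -0.32 in the second series, -0.22 with array weights and -0.37 to 1.87 with 1 array left out, *Elovl5* -0.003 in the second series and -0.0011 to 0.83 with 1 array left out, and *Elovl4* -0.037 in the second series. Another scaling moved the median of all probes between the genotypes in scWAT from 0.04 to 0.17 (median scaling) or -0.20 (no scaling), and the split of calls from 1091 higher and 601 lower to 303 and 535 with no scaling. Between the WT tissues no scaling gave 2483 higher and 4709 lower, against 5038 and 2932. Signal near background limits *Elovl4*, *Elovl7* and *Fads2*.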
